A study of Solanum lycopersicum with 120 samples.

Results

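Hypocotyl-enriched genes are described here: the genes of tomato (cultivar M82) seedlings whose transcripts were high in the hypocotyl and low in every other organ sampled. They were chosen by their levels in wild-type (WT) seedlings kept in white light. A gene entered when its mean over the 9 white-light hypocotyl libraries was at least 10 CPM (reads counted for a gene, scaled to the size of the library) and at least 4 times the 9-library mean of the epicotyl, of the cotyledons and of the first leaf. The rule found 118 of the 17161 genes in the deposited time-course table of normalised CPM, or 0.688%. The white-light levels of WT chose the genes, so their organ pattern in those libraries is a description and was not tested.

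The hypocotyl is the stem between the root and the cotyledons, and the epicotyl is the stem above them. A low ratio of red to far-red light (low R/FR) signals neighbouring plants. It inactivates phytochrome B and so releases PHYTOCHROME INTERACTING FACTORs (PIFs), bHLH transcription factors that drive stem elongation in Arabidopsis. Stem walls yield to growth through expansins and xyloglucan endotransglucosylase/hydrolases (XTHs), and are fixed by extensins, peroxidases and laccases that cross-link wall polymers and lignin.

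All seedlings grew for 12 days in long days of white light at 24 °C. After 2 h of light they were moved to low R/FR of 0.6 at that temperature (24FR) or stayed in white light (24WL). Hypocotyls, epicotyls, cotyledons and first leaves were sampled from WT after 3, 6 and 24 h. They were also sampled at 6 h from slpif8a, a CRISPR mutant of SlPIF8a, and from slpifq, in which SlPIF4, SlPIF7a, SlPIF7b and SlPIF8a carry CRISPR alleles. Each group had 3 replicates of 4 pooled seedlings, 120 libraries in all, and 24 of the WT 6 h libraries stand in both the time-course and the genotype table. No source used here says whether replicates were grown separately, so p-values measure the spread between these pools.

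The libraries held between 15905765 and 33913236 counts assigned to genes. A floor of 3 counts corresponded to 0.0710 to 0.209 CPM in the time-course table. SlPIF8a transcripts stood at 13.3 to 35.5 CPM in 6 slpifq hypocotyl libraries, at 17.9 to 35.7 in 6 of slpif8a and at 9.90 to 36.4 in 6 of WT. The alleles are edited sequences, so a transcript level does not check the genotype labels. In WT hypocotyls the summed level of 11 chlorophyll a-b binding protein genes was 1843 to 2229 CPM in 24FR, against 2527 to 3129 CPM in 24WL, at 6 h. At 24 h it was 1160 to 1184 CPM in 24FR and 1419 to 1702 CPM in 24WL. A pair of KNOX genes, which mark stem and meristem tissue, moved the other way, at 143 to 155 CPM in 24FR and 98.2 to 118 CPM in 24WL at 6 h. The summed level of 6 cyclin genes, which mark dividing cells, overlapped at 6 h. It was 86.3 to 96.4 CPM in 24FR and 78.8 to 98.4 CPM in 24WL. At 24 h the cyclins had 96.0 to 115 CPM in 24FR and 86.6 to 92.6 CPM in 24WL. The part of these shifts in the results was not tested. In bulk organs, fewer cells of a type and less RNA per cell cannot be told apart.

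The 118 genes spanned nearly 3 orders of magnitude in the white-light hypocotyl, with a median of 33.9 CPM. Of them, 87 averaged at least 20 CPM, 46 at least 50 CPM and 25 at least 100 CPM. Extensin-3 (Solyc09g098510), a wall glycoprotein, stood far above the rest at 7980 ± 674 CPM (SD, n = 9), against 568 CPM in epicotyls, 296 in cotyledons and 250 in first leaves. It held 42.3% of the summed level of the 118 genes. That sum was 18877 CPM for the hypocotyl, 1630 for the epicotyl, 968 for the cotyledons and 744 for the first leaf. An organ specific protein (Solyc10g009150) followed at 922 ± 115 CPM (SD, n = 9). The other genes among the 10 most abundant were Solyc07g042520 at 860 CPM, Solyc07g042995 at 721, Solyc04g071610 at 700, the peroxidase Solyc01g006290 at 502, Solyc01g109500 at 415, MLP-like protein 43 (Solyc09g014525) at 386, Solyc10g049580 at 377 and Solyc06g073190 at 321 CPM.

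How far the hypocotyl exceeded the next organ also varied widely. The median ratio to the next organ was 8.55; 96 genes had at least 5, 48 at least 10, 32 at least 20, 16 at least 50 and 12 at least 100. Sn-1 protein (Solyc04g007760) had the highest ratio, 954, from a hypocotyl mean of 82.1 CPM and an epicotyl mean of 0.0861 CPM. That epicotyl mean is near the depth floor, so the ratio is imprecise. The next organ was the epicotyl for 71 genes, the cotyledons for 36 and the first leaf for 11. In 112 genes all 9 hypocotyl libraries lay above all 27 white-light libraries of the other organs. The rule used these same libraries, so the separation is a description, and its share over all genes was not computed.

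**Figure D1:**
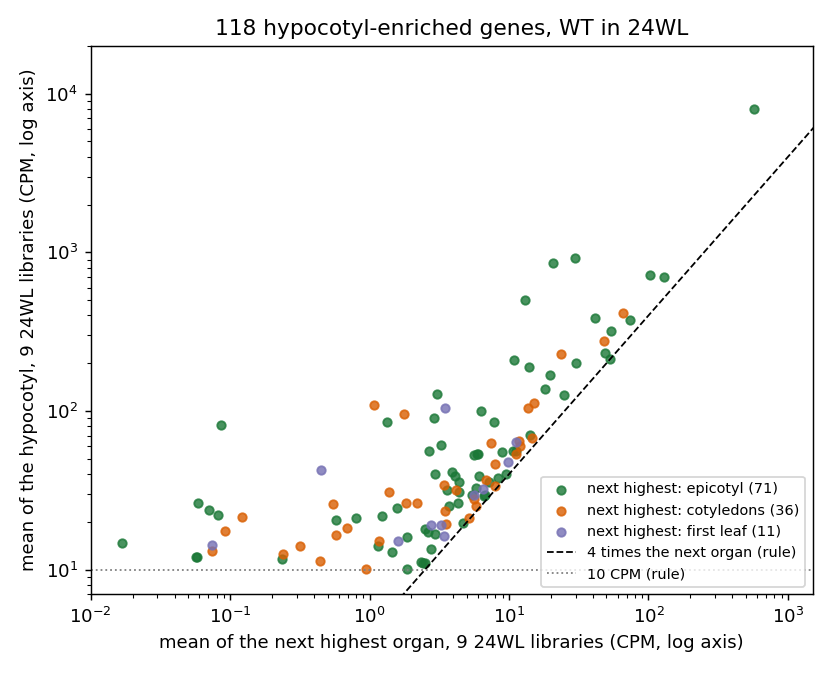
Each point is 1 of the 118 genes, with its mean CPM in WT white-light hypocotyls (vertical, log axis) against the mean of its next highest organ (horizontal, log axis), 9 libraries each, coloured by that organ; the dashed and dotted lines are the limits of the rule. Extensin-3 lies alone at the top at 7980 CPM, and the 71 genes next highest in the epicotyl outnumber the 36 of the cotyledons and the 11 of the first leaf.

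The limits cut through a continuous range. Just inside the 4-fold limit lay Solyc12g040640 at 4.04, Solyc12g088300 at 4.13 and Solyc09g075070 at 4.19 times the next organ. Just outside lay Solyc02g071700 at 3.99, Solyc03g119210 at 3.96 and Solyc11g072310 at 3.95. At the CPM limit, Solyc08g082980 and Solyc07g044960 averaged 10.1 CPM each, whereas Solyc02g077590 with 9.67 CPM and Solyc01g103920 with 9.61 CPM stayed out.

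By the study's annotation 66 of the 118 genes had a description, 4 of them only as unknown or hypothetical, and 52 had none. Descriptions are automatic, and the annotation favours genes the study found responding. Matching words in the descriptions placed 27 of the 66 in no role group. Among the role groups, wall-related genes were the most numerous. Of these, 10 encode oxidases and partners of lignin formation (7 peroxidases, 2 laccases and a dirigent protein), and 7 act on wall polysaccharides or wall proteins. A further 6 encode enzymes of specialised metabolism, 5 act on lipids, 3 are tied to hormones, 3 to defence or proteolysis and 3 to signalling, 2 are transporters and 1 is described as a transcription factor. An ethylene response factor (Solyc06g065820), which also regulates transcription, is counted with the hormones. Solyc03g079880 is counted under both lipids and defence. How common these groups are among all annotated genes was not examined. The genes lay on all 12 chromosomes, with the fewest on chromosome 12 (4 genes) and the most on chromosome 2 (17 genes). Only 1 pair, Solyc09g007650 and Solyc09g007660, was adjacent among the listed gene IDs, and 9 pairs lay within 10 IDs of each other.

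The hypocotyl pattern was tested in libraries the rule had not used. A gene is termed called where the quasi-likelihood test of edgeR gave a Benjamini-Hochberg adjusted p (taken over all genes tested) under 0.05 and the log2 fold change was beyond 1 in size. In WT after 6 h of 24FR, 115 of the 118 genes were called higher in the hypocotyl than in each of the other organs, as were 3.30% of all genes tested. The 3 genes that missed it, named after their values were seen, were the bHLH gene Solyc03g006910 and the undescribed Solyc04g011440 and Solyc11g066100. In 24WL all 118 genes were higher in the slpif8a hypocotyl (3.24% of all genes) and 117 in the slpifq hypocotyl (3.38% of all genes). The exception in slpifq was Solyc12g088300, a gene near the 4-fold limit.

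The far-red response of the genes was mostly downward and was larger at the later times. The 3 times also differ in time of day, and the 24 h samples had passed a night. Time in 24FR cannot be told apart from these. After 3 h in WT hypocotyls, 1 of the 118 genes was called higher in 24FR (0.710% of all genes were) and 3 were called lower (0.693% of all genes). At 6 h, 3 were called higher (2.00% of all genes) and 18 lower (2.47% of all genes). By 24 h the counts were 3 higher (2.06% of all genes) and 25 lower (2.18% of all genes). The median log2 fold change of 24FR over 24WL was -0.07 at 3 h, -0.26 at 6 h and -0.58 at 24 h, against medians over all genes of 0.02, -0.02 and -0.01. Values below 0 were found for 64, 90 and 96 genes at the 3 times.

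These contrasts share the 24WL libraries that chose the genes, and a gene chosen for a high white-light level is favoured to look lower in 24FR. Lists chosen without the white-light libraries of the time tested were therefore examined as well. At 6 h such a list held 129 genes, with 4 called higher, 21 called lower and a median of -0.30. At 24 h it held 125 genes, with 8 called higher, 24 called lower and a median of -0.42. At 3 h it held 120 genes, of which 2 were called higher and 3 lower. Without replicate 3 of the 24FR libraries at 3 h, 7 of the original 118 genes were called at that time in place of 4. The summed level of all 118 genes at 24 h was 16555 to 18955 CPM in 24FR and 17436 to 18782 CPM in 24WL, which overlap. Leaving Extensin-3 out, it was 6924 to 8202 CPM in 24FR and 10135 to 10509 CPM in 24WL, with no overlap.

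**Figure D2:**
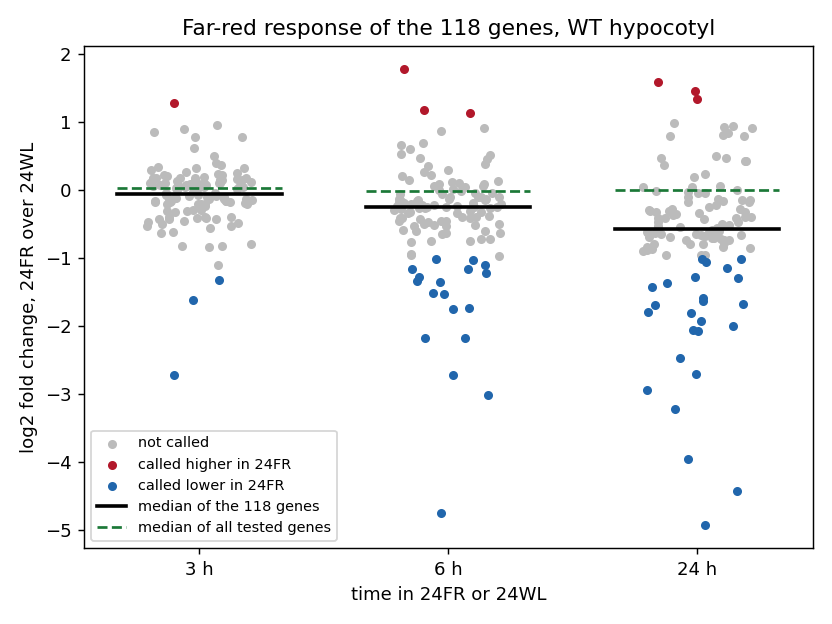
Each point is the log2 fold change of 24FR over 24WL for 1 of the 118 genes in WT hypocotyls after 3, 6 and 24 h; red and blue points were called higher and lower, the black line is the median of the 118 genes and the dashed green line the median of all tested genes. The median of the 118 genes is -0.07, -0.26 and -0.58 at the 3 times, and that of all genes 0.02, -0.02 and -0.01.

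Across the 3 times, 34 of the 118 genes were called at least once, 5 of them higher and 29 lower, and none changed direction. Shares of all genes for these counts across the times were not computed. Both genes called at all 3 times, lipoxygenase A (Solyc08g014000) and the hypothetical protein Solyc12g088300, were lower. The lower calls at 6 h and 24 h shared 14 genes, which is 77.8% of the 18 at 6 h and 56% of the 25 at 24 h. Each comparison has its own control libraries, but both sets are among the 24WL libraries that chose the genes. That choice favours lower values at both times, and the same overlap over all genes was not computed. The other 84 genes were not called at any time. The genes called at 6 h were all described ones, and 6 undescribed genes were called lower at 24 h. The annotation itself favours genes the study found responding.

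Among the 7 wall genes, 1 was called higher and 3 lower at 6 h, with a median log2 fold change of -0.60, and 4 were called lower at 24 h, with a median of -1.29. Beta expansin precursor 2 (Solyc03g093390) belongs to the expansins, which loosen walls. At 24 h it had 0.189, 0.386 and 0.375 CPM in 24FR, against 8.95, 6.23 and 14.7 CPM in 24WL. The groups were far apart, and the log2 fold change was -4.94 ± 0.53 (SE, adjusted p = 8.0e-10). It was already lower at 6 h, at -1.54 ± 0.39 (adjusted p = 0.0026). A beta-glucosidase (Solyc10g045240), an enzyme that releases glucose from glucosides, had 24.3, 21.3 and 20.8 CPM in 24FR and 184, 214 and 221 CPM in 24WL at 24 h. Its change came late: the log2 fold change was -3.22 ± 0.23 at 24 h (adjusted p = 6.1e-17), whereas at 6 h it was -0.60 ± 0.20 with overlapping libraries and no call. The other beta-glucosidase, Solyc03g031730, was lower at 6 h by -1.10 ± 0.15 and at 24 h by -1.29 ± 0.15 on the log2 scale. Its call at 6 h was lost without replicate 3 of the 24FR libraries, where the log2 fold change was -0.97.

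The XTHs, which cut and rejoin xyloglucan chains, moved in opposite directions. Solyc05g005680 had 126, 164 and 217 CPM in 24FR at 6 h, against 33.6, 68.2 and 46.3 CPM in 24WL. All 24FR libraries lay above all 24WL libraries, with a log2 fold change of 1.78 ± 0.18 (adjusted p = 8.5e-12). At 3 h and 24 h it was 0.61 ± 0.17 and 0.79 ± 0.17, within the 2-fold limit of a call. XTH6 (Solyc11g066270) had 18.8, 14.6 and 8.86 CPM in 24FR, against 40.3, 34.2 and 33.6 CPM in 24WL at 6 h. It was lower at 6 h by -1.36 ± 0.24 and at 24 h by -1.37 ± 0.24 on the log2 scale. Extensin-3, by far the most abundant member, had 10754, 11137 and 9631 CPM in 24FR and 8471, 7301 and 7761 CPM in 24WL at 24 h. Its libraries did not overlap, but the log2 fold change of 0.42 ± 0.21 was not called (adjusted p = 0.13).

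Few of the 10 lignin-related genes were called: 1 was called higher and none lower at 6 h, and 1 was called higher and 1 lower at 24 h. Peroxidases use hydrogen peroxide to couple phenolic groups. The peroxidase Solyc04g071900 had 76.3, 80.0 and 68.2 CPM in 24FR, against 33.9, 27.5 and 31.2 CPM in 24WL, at 3 h. It was the only gene called higher at 3 h (log2 fold change 1.28 ± 0.17, adjusted p = 1.5e-07) and was called again at 24 h, at 1.34 ± 0.17. At 6 h it was 0.91 ± 0.17, short of the 2-fold limit although the libraries did not overlap. A second peroxidase, Solyc08g069040, had 152, 172 and 143 CPM in 24FR and 69.1, 99.9 and 45.0 CPM in 24WL at 6 h, a log2 fold change of 1.13 ± 0.25 (adjusted p = 0.00047). That call was lost without replicate 3 of the 24WL libraries, at a log2 fold change of 0.88. The laccase Solyc05g052340, a copper oxidase, had 2.99, 1.86 and 2.80 CPM in 24FR, against 15.6, 16.4 and 10.5 CPM in 24WL, at 24 h. It was the lignin-related gene called lower, with a log2 fold change of -2.47 ± 0.29 (adjusted p = 2.7e-09) at 24 h and -0.23 ± 0.26 at 6 h.

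The 6 genes grouped as specialised metabolism, lipoxygenase A among them through its oxygenase name, were the group with the most calls at 6 h. Then 5 were called lower, with a group median of -1.17, and at 24 h 4 were, with a median of -1.70. The wall group also had 4 called lower at 24 h. Role groups hold described genes alone, and the annotation favours genes the study found responding. Counts by group are therefore a description. Lipoxygenases oxidise polyunsaturated fatty acids. Lipoxygenase A (Solyc08g014000) had 45.5, 51.9 and 36.1 CPM in 24FR, against 150, 122 and 138 CPM in 24WL, at 3 h. At 6 h it had 27.4, 3.50 and 8.34 CPM in 24FR and 85.7, 156 and 77.0 CPM in 24WL. At 24 h the values were 12.9, 12.0 and 7.64 CPM in 24FR and 104, 69.0 and 79.3 CPM in 24WL. The groups were separate at each time, with log2 fold changes of -1.62 ± 0.31, -3.03 ± 0.33 and -2.95 ± 0.33.

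Another 4 genes of this group were lower by smaller amounts. The sixth, the HXXXD-type acyl-transferase gene Solyc08g005890, named after its values were seen, was not called, at 0.06 ± 0.29 at 6 h and -0.02 ± 0.30 at 24 h. The 2-oxoglutarate-dependent oxygenase Solyc01g006580 had 14.7, 16.4 and 11.4 CPM in 24FR, against 54.9, 64.3 and 59.5 CPM in 24WL, at 24 h. Its log2 fold change was -0.40 ± 0.14 at 3 h, -1.23 ± 0.15 at 6 h and -2.07 ± 0.15 at 24 h, the last with an adjusted p of 5.1e-16. A related oxygenase, Solyc02g062490, was lower by -1.17 ± 0.26 at 6 h and -1.60 ± 0.29 at 24 h. The cytochrome P450 gene Solyc06g035760, of the mono-oxygenase family, had 103, 96.9 and 88.5 CPM in 24FR and 242, 218 and 187 CPM in 24WL at 6 h. It was called at 6 h alone, with a log2 fold change of -1.16 ± 0.18 then and -0.84 ± 0.18 at 24 h. The glycosyltransferase Solyc04g074330 was lower by -1.80 ± 0.30 at 24 h. Its call at 6 h, at -1.01 ± 0.31, was at the limit and was lost with limma (-0.82) and without any one of 4 libraries (24WL replicates 1 and 2, 24FR replicates 2 and 3), at -0.97 to -0.86.

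The largest change at 6 h was in the gene described as a transcription factor. Solyc03g006910, bHLH transcription factor 019, had 1.46, 1.32 and 1.23 CPM in 24FR, against 10.7, 6.94 and 9.21 CPM in 24WL, at 3 h. At 6 h the values were 0.466, 0.250 and 0.221 CPM in 24FR and 7.20, 8.23 and 9.74 CPM in 24WL. The log2 fold change was -2.73 ± 0.32 at 3 h and -4.75 ± 0.39 at 6 h (adjusted p = 2.5e-14). At 24 h the gene was high in both, at 29.8, 27.1 and 18.2 CPM in 24FR and 44.0, 35.7 and 45.9 CPM in 24WL. The groups still did not overlap, but the log2 fold change of -0.74 ± 0.27 was not called.

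Several genes of less known role were called lower at 6 and 24 h. MLP-like protein 43 (Solyc09g014525) belongs to the major latex protein family, small proteins related to the pathogenesis-related PR-10 group. It had 407, 358 and 261 CPM in 24FR, against 420, 356 and 417 CPM in 24WL, at 3 h, and the groups overlapped. At 6 h it had 103, 123.4 and 73.3 CPM in 24FR and 415, 504 and 445 CPM in 24WL. At 24 h it had 25.1, 19.2 and 14.0 CPM in 24FR and 294, 285 and 333 CPM in 24WL. The log2 fold change was -0.22 ± 0.18, -2.19 ± 0.18 and -3.97 ± 0.20 in turn, the last with an adjusted p of 2.2e-22.

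The organ specific protein Solyc07g016215 followed the same course. It had 57.2, 56.8 and 42.4 CPM in 24FR, against 69.2, 65.3 and 87.0 CPM in 24WL, at 3 h. At 6 h it had 46.3, 46.2 and 26.1 CPM in 24FR and 156, 187 and 195 CPM in 24WL. At 24 h it had 2.53, 3.02 and 3.00 CPM in 24FR and 73.3, 53.0 and 59.6 CPM in 24WL. The log2 fold change was -0.50 ± 0.20 with no call at 3 h, then -2.18 ± 0.21 and -4.44 ± 0.25. The more abundant organ specific protein, Solyc10g009150, was not called at any time and stood at -0.37 ± 0.25 at 24 h.

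The hypothetical protein Solyc12g088300 had 2.36, 2.09 and 2.82 CPM in 24FR, against 16.9, 18.4 and 12.9 CPM in 24WL, at 6 h. It was lower by -1.33 ± 0.27, -2.72 ± 0.29 and -2.00 ± 0.27 on the log2 scale at 3, 6 and 24 h. Protease inhibitor I (Solyc09g084460), a defence protein against insect digestion, had 57.7, 36.4 and 44.3 CPM in 24FR and 138, 199 and 124 CPM in 24WL at 6 h. It was called at 6 h alone: the log2 fold change was -1.74 ± 0.18 at 6 h (adjusted p = 2.1e-11) and 0.19 ± 0.17 at 24 h, where the groups overlapped. A glycolipid transfer protein (Solyc09g090310) was the only lipid gene called in WT hypocotyls at 6 or 24 h, at -1.34 ± 0.19 and -1.68 ± 0.19.

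Acid phosphatase 1-like genes, counted under signalling through the word phosphatase, split in direction. Solyc09g090600 had 67.9, 54.4 and 52.1 CPM in 24FR, against 21.2, 18.5 and 18.6 CPM in 24WL, at 24 h. It was higher at 6 h by 1.17 ± 0.14 and at 24 h by 1.58 ± 0.14 on the log2 scale (adjusted p = 1.2e-13), and its libraries did not overlap at 3 h either (0.94 ± 0.14). Solyc06g062380 had 17.8, 18.3 and 18.99 CPM in 24FR, against 63.9, 60.4 and 70.3 CPM in 24WL, at 24 h. It was lower by -1.82 ± 0.16 on the log2 scale. Gibberellin-regulated protein 3 (Solyc02g083880), a small secreted peptide, had 86.2, 64.1 and 73.6 CPM in 24FR and 29.6, 24.3 and 27.7 CPM in 24WL at 24 h. It was the only one of the 3 hormone-related genes called in WT hypocotyls, at 1.46 ± 0.31 (adjusted p = 0.00023).

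**Figure D3:**
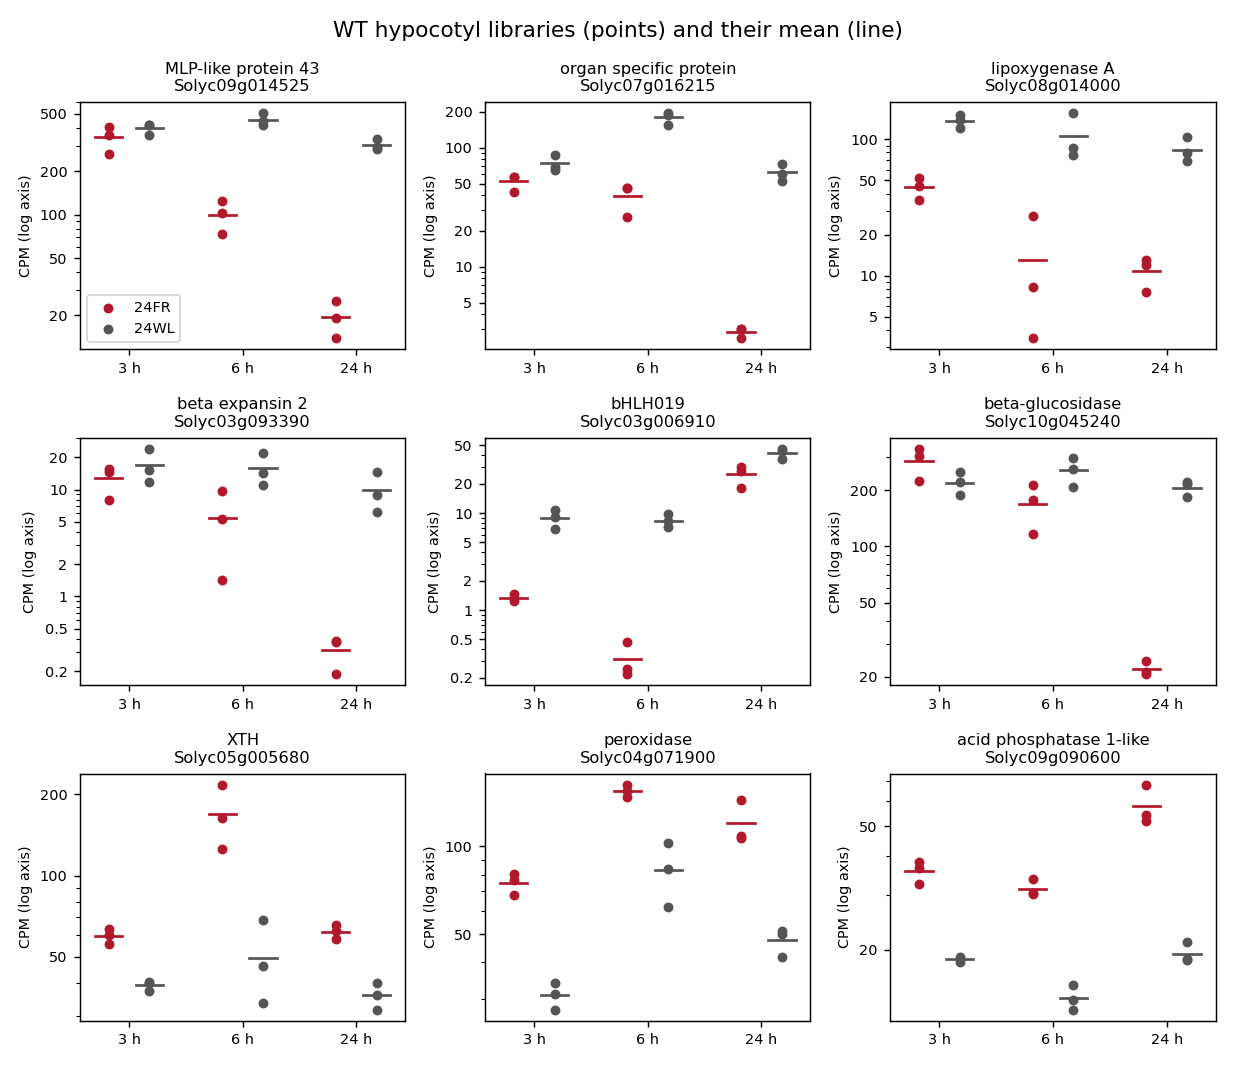
Each panel shows 1 gene, with the 3 WT hypocotyl libraries of 24FR (red) left of those of 24WL (grey) after 3, 6 and 24 h, in CPM on a log axis, and a line at each mean. MLP-like protein 43, the organ specific protein and the beta expansin separate further with time, bHLH019 is lowest at 6 h, and the XTH, the peroxidase and the acid phosphatase lie higher in 24FR.

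The levels also moved with time in white light itself, in the libraries that the rule averaged. Between 3 and 6 h in 24WL, 6 genes were called higher at 6 h (2.05% of all genes) and 4 lower (2.45% of all genes). Between 6 and 24 h, 9 were called higher at 24 h (6.41% of all genes) and 17 lower (5.51% of all genes). The 3 and 6 h samples and the 24 h samples differ in time of day as well as in age, and these cannot be told apart. Solyc04g080540, annotated as a DNA polymerase epsilon subunit and picked here after its values were seen, had 31.3, 38.3 and 48.5 CPM at 3 h, 35.98, 49.3 and 28.4 CPM at 6 h and 1.31, 1.22 and 1.04 CPM at 24 h. The undescribed Solyc11g066100, picked in the same way, had 39.9, 36.1 and 51.4 CPM at 3 h, 7.81, 6.26 and 4.20 CPM at 6 h and 41.3, 39.8 and 40.7 CPM at 24 h. Of the 118 genes, 83 met the rule at every single time. The rest, both of these genes among them, passed it on their 9-library mean alone.

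In the organs where these genes are low, their far-red response at 6 h was tested too. In the epicotyl 5 genes were called higher (1.27% of all genes) and 12 lower (1.24% of all genes). In the cotyledons 9 were called higher (1.56% of all genes) and 10 lower (1.52% of all genes). In the first leaf 3 were called higher (1.04% of all genes) and 7 lower (1.21% of all genes). At or under the floor in both conditions were 7 genes in epicotyls, 13 in cotyledons and 22 in first leaves. Of the 18 genes lower in the hypocotyl, 8 were called lower in epicotyls as well (66.7% of the lower calls there), 8 in cotyledons (80%) and 7 in first leaves (100%). Of the 3 genes higher in the hypocotyl, 1 was called higher in epicotyls as well, 3 in cotyledons and 1 in first leaves. The same overlaps over all genes were not computed, so these shares are a description. Counts in these organs depended on the test: on log2 of CPM plus 1, limma called 11 genes in epicotyls, 7 in cotyledons and 4 in first leaves.

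A few genes responded in all 4 organs. Protease inhibitor I (Solyc09g084460) had 2.47, 2.46 and 2.18 CPM in 24FR and 10.8, 16.6 and 11.3 CPM in 24WL in the epicotyl at 6 h, a log2 fold change of -2.44 ± 0.21. The peroxidase Solyc08g069040 had 24.0, 23.0 and 23.2 CPM in 24FR and 4.74, 12.6 and 3.92 CPM in 24WL there, at 1.72 ± 0.27. Both were called in the same direction in every organ, but with limma the inhibitor lost its calls in cotyledons (-0.98) and first leaves (-0.75). Called lower in every organ as well were the bHLH gene Solyc03g006910, Solyc12g088300, Solyc09g090310 and Solyc07g006570, the last named after its values were seen. With limma Solyc09g090310 lost its calls in epicotyls (-0.98), cotyledons (-0.52) and first leaves (-0.56), and Solyc12g088300 in first leaves (-0.65). The peroxidase Solyc04g071900 was called higher outside the hypocotyl too, by 1.74 ± 0.19 in epicotyls, 1.26 ± 0.18 in cotyledons and 1.39 ± 0.20 in first leaves. The bHLH gene Solyc03g006910 had 0.122, 0.166 and 0.177 CPM in 24FR, against 1.20, 3.98 and 2.29 CPM in 24WL, in the epicotyl, and was listed at 0 in all 3 first-leaf libraries of 24FR. Its call was lost in 4 refits in cotyledons and in 6 in first leaves, among them limma (-0.46 and -0.25).

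The hypocotyl response differed from the epicotyl response at 6 h in 6 genes, by the interaction of organ and light at an adjusted p under 0.05. The difference was above 0 in 3 genes (0.687% of all genes) and below 0 in 3 (0.504% of all genes). Solyc05g005680, the XTH, had 2.76, 3.39 and 2.51 CPM in 24FR and 3.60, 3.83 and 2.40 CPM in 24WL in the epicotyl, where it was not called, and the difference was 1.95 ± 0.28. In cotyledons this XTH was called higher in 24FR, but not with limma (0.64). MLP-like protein 43 (Solyc09g014525) had 31.9, 26.97 and 25.6 CPM in 24FR and 38.7, 36.8 and 35.2 CPM in 24WL in the epicotyl, and its difference was -1.80 ± 0.26. For the organ specific protein Solyc07g016215 the difference was -2.53 ± 0.36, at 1.48 to 1.98 CPM in 24FR and 1.13 to 1.78 CPM in 24WL in the epicotyl. These 3 genes had an adjusted p of 6.3e-06 each. With limma 14 genes passed.

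In the slpif8a hypocotyl at 6 h, 2 of the 118 genes were called higher in 24FR (1.17% of all genes) and 6 lower (1.05% of all genes), with a median of -0.17. Without replicate 3 of the slpif8a 24FR libraries 4 genes were called in place of 8. In the slpifq hypocotyl 1 was called higher (0.699% of all genes) and 3 lower (0.435% of all genes), with a median of -0.06. In a fit of the hypocotyl libraries alone slpifq had 2 called genes. In the same table the WT hypocotyl had 3 called higher (1.95% of all genes) and 16 lower (2.15% of all genes). None of the mutant libraries took part in choosing the genes, whereas the WT 24WL libraries did.

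All 16 genes called lower in WT in this table lay below 0 in slpif8a and 15 in slpifq. Their median log2 fold change was -0.60 in slpifq, -0.88 in slpif8a and -1.51 in WT, whose own calls chose these 16 genes. The bHLH gene Solyc03g006910 was called lower in every genotype, at 1.86, 1.22 and 1.67 CPM in 24FR and 14.2, 7.61 and 25.6 CPM in 24WL of slpifq. The hypothetical protein Solyc12g088300 and the beta expansin Solyc03g093390 were called lower in both mutants as well. In slpifq the expansin had 15.9, 3.94 and 8.73 CPM in 24FR, against 29.1, 41.2 and 23.5 CPM in 24WL, a log2 fold change of -1.72 ± 0.42 (adjusted p = 0.011). That call was lost with DESeq2 (-1.73), in a fit of the hypocotyl libraries alone (-1.72) and without replicate 2 of the slpifq 24WL or 24FR libraries, at -1.47 and -1.34. The XTH Solyc05g005680 was called higher in both mutants, at 1.45 ± 0.33 in slpifq and 1.22 ± 0.33 in slpif8a. Both calls were lost in the fit of the hypocotyl libraries alone, at 1.44 in slpifq and 1.23 in slpif8a. The slpifq call was also lost without replicate 1 of 24WL (1.28), and the slpif8a call without replicate 1 of 24WL (0.90) or replicate 3 of 24FR (0.98).

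**Figure D4:**
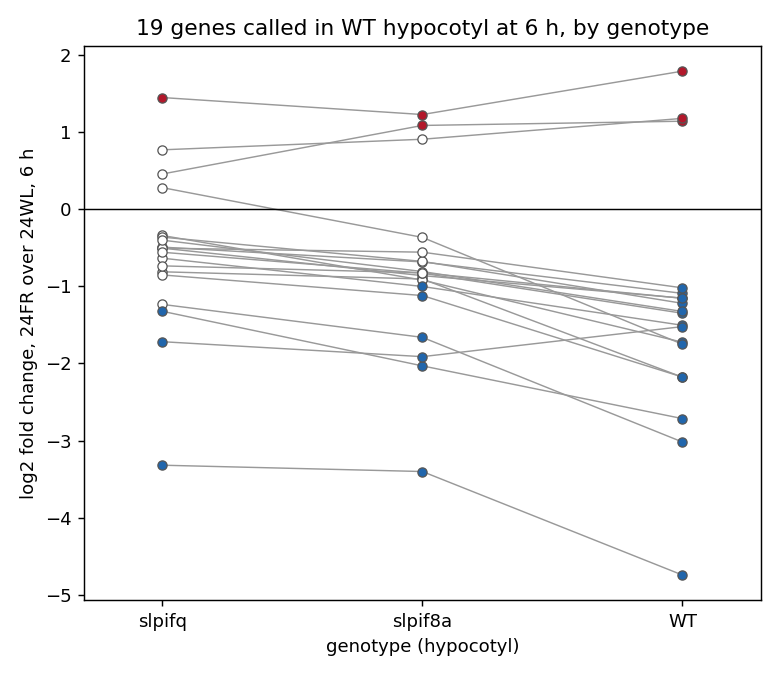
Log2 fold change of 24FR over 24WL in hypocotyls at 6 h for the 19 genes called in WT in the genotype table, drawn for slpifq, slpif8a and WT and joined by gene; filled points were called higher (red) or lower (blue), open points were not called. The 16 lower genes have a median of -0.60 in slpifq, -0.88 in slpif8a and -1.51 in WT.

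Whether a mutant responded differently from WT was tested directly, as the interaction of genotype and light. For slpifq the difference passed an adjusted p of 0.05 above 0 in 5 genes (0.538% of all genes) and below 0 in none (0.802% of all genes). Its median over the 118 genes was 0.22, with 95 above 0, against a median of 0.01 over all genes. The WT 24WL libraries in this difference are among those that chose the genes, which favours values above 0. A list of 129 genes chosen without the 6 h white-light libraries also had a median of 0.22. In that list the difference passed above 0 in 6 genes and below 0 in 0. For slpif8a the difference passed above 0 in 1 gene (0.0687% of all genes) and below 0 in none (0.00573% of all genes). The 5 slpifq genes among the 118 were MLP-like protein 43, protease inhibitor I, the glutamine amidotransferase-like protein Solyc02g086300, the hypothetical protein Solyc12g088300 and the oxygenase Solyc01g006580. The count was 2 without replicate 2 of the 24FR or 24WL libraries of WT or without replicate 1 of 24FR or replicate 3 of 24WL of slpifq. It was 3 without any of 4 other libraries: replicate 3 of WT 24WL, replicates 1 and 2 of slpifq 24WL and replicate 3 of slpifq 24FR.

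MLP-like protein 43 (Solyc09g014525) was the only gene that passed in both mutants. In 24FR its levels were 233, 203 and 269 CPM for slpifq, 183, 314 and 158 CPM for slpif8a, and 110, 133 and 79.3 CPM for WT. In 24WL they were 515, 398 and 324 CPM for slpifq, 410, 491 and 325 CPM for slpif8a, and 439, 539 and 479 CPM for WT. The mutants lay above WT in 24FR without overlap, and the genotypes overlapped in 24WL. The response differed from that of WT by 1.37 ± 0.27 in slpifq (adjusted p = 0.0016) and by 1.27 ± 0.27 in slpif8a (adjusted p = 0.022). Both calls were lost in the fit of the hypocotyl libraries alone, at 1.36 in slpifq and 1.27 in slpif8a. The slpif8a difference also lost its call without any one of 6 libraries (replicates 2 and 3 of WT 24WL, replicate 3 of WT 24FR, replicates 1 and 3 of slpif8a 24WL and replicate 2 of slpif8a 24FR), at 0.91 to 1.28.

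Protease inhibitor I (Solyc09g084460) had 110, 91.4 and 87.7 CPM in slpifq and 61.8, 39.3 and 47.9 CPM in WT in 24FR. In 24WL it had 136, 116 and 114 CPM in slpifq and 146, 212 and 134 CPM in WT, where the genotypes overlapped. Its difference of response was 1.38 ± 0.34 (adjusted p = 0.019). The call was lost without any one of 5 libraries (replicate 2 of WT 24WL, replicate 2 of WT 24FR, replicates 2 and 3 of slpifq 24WL and replicate 1 of slpifq 24FR), at 1.15 to 1.35. For Solyc02g086300 the difference was 2.03 ± 0.45 (adjusted p = 0.0077), but the slpifq libraries overlapped those of WT in 24FR, at 18.1, 42.2 and 27.6 CPM against 13.2, 12.2 and 18.7 CPM. It lost its call with hypocotyl libraries alone, at 2.02, and without replicate 3 of WT 24WL, at 1.53. The differences for Solyc12g088300 (1.39 ± 0.37) and Solyc01g006580 (0.86 ± 0.23) both had an adjusted p of 0.042, and each lost its call in most fits that left out 1 library.

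Within 24FR, 7 genes were called higher in slpifq than in WT (1.14% of all genes) and 0 lower (0.939% of all genes). The median difference over the 118 genes was 0.06, against 0.01 over all genes. The bHLH gene Solyc03g006910 differed most, at 1.86, 1.22 and 1.67 CPM in slpifq and 0.499, 0.270 and 0.239 CPM in WT, a log2 difference of 2.24 ± 0.53 (adjusted p = 0.0029) that was not called with limma (0.95). Lipoxygenase A (Solyc08g014000) had 72.9, 51.8 and 35.6 CPM in slpifq and 29.3, 3.78 and 9.01 CPM in WT, at 1.94 ± 0.45, and was not called in the fit of the hypocotyl libraries alone (1.94). The 3 slpifq libraries lay above the 3 WT libraries in both genes.

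The other genes called in this contrast were smaller in their difference. The hypothetical protein Solyc12g088300 had 6.63, 5.01 and 9.49 CPM in slpifq and 2.53, 2.26 and 3.04 CPM in WT, at 1.43 ± 0.28. Phospholipase A1-II 1 (Solyc02g077420), which cleaves fatty acids from membrane lipids, had 34.7, 59.6 and 45.5 CPM in slpifq and 13.1, 17.5 and 25.3 CPM in WT, at 1.32 ± 0.41. Its call was lost with hypocotyl libraries alone (1.32) and without replicate 1 or 2 of WT or replicate 2 of slpifq, at 1.10 to 1.28. A gene annotated as aspartate carbamoyltransferase (Solyc01g109895), an enzyme of pyrimidine synthesis, had 22.2, 14.7 and 14.4 CPM in slpifq and 8.52, 7.45 and 6.12 CPM in WT, at 1.22 ± 0.27, and 0.99 with no call without replicate 1 of slpifq. MLP-like protein 43 (Solyc09g014525) differed by 1.13 ± 0.19, and by 0.95 with no call without replicate 3 of WT. Ovate family protein 20 (Solyc10g076180), of a family of transcriptional repressors, was called at 1.02 ± 0.23, although its libraries overlapped at 61.2, 24.4 and 45.4 CPM in slpifq and 29.1, 18.4 and 17.3 CPM in WT.

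**Figure D5:**
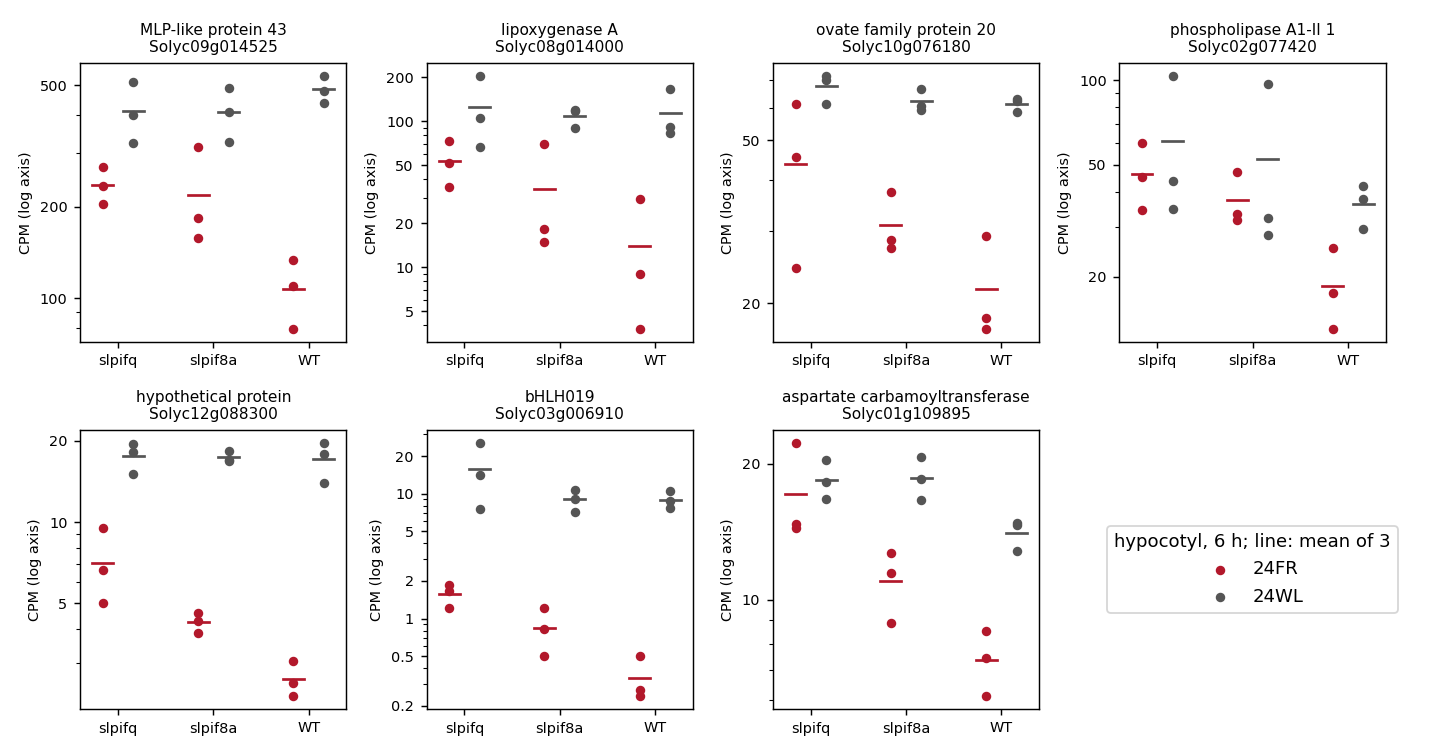
Each panel shows 1 of the 7 genes called higher in slpifq than in WT hypocotyls in 24FR at 6 h, with the 3 libraries of 24FR (red) left of those of 24WL (grey) for slpifq, slpif8a and WT, in CPM on a log axis, and a line at each mean. In WT the 24FR libraries of MLP-like protein 43 (Solyc09g014525) lie at 79.3 to 133 CPM, below the 203 to 269 CPM of slpifq, while the 24WL libraries overlap.

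In slpif8a against WT within 24FR, 1 gene was called higher (0.424% of all genes) and 0 lower (0.0916% of all genes). That gene was MLP-like protein 43 (Solyc09g014525), at a log2 difference of 1.02 ± 0.19 (adjusted p = 0.00082). It lost its call with limma (0.98), with hypocotyl libraries alone (1.02), without replicate 3 of WT (0.84) and without replicate 2 of slpif8a (0.67), while without replicate 1 of WT 2 genes were called. Between the mutants in 24FR, slpifq against slpif8a, edgeR called 0 genes higher (0.115% of all genes) and 0 lower (0.378% of all genes). There 16 of the 118 genes had an unadjusted p under 0.05, DESeq2 and limma called 0 each, and 1 was called by edgeR without replicate 2 of slpif8a.

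In 24WL no gene of the 118 was called between genotypes by edgeR. In slpif8a against WT the counts were 0 higher (0.0573% of all genes) and 0 lower (0.0286% of all genes), with 15 genes at an unadjusted p under 0.05 and 0 called by DESeq2 and by limma. In slpifq against WT they were 0 higher (0.0802% of all genes) and 0 lower (0.0573% of all genes), with 22 at an unadjusted p under 0.05, 0 called by DESeq2 and 1 by limma, and 1 by edgeR without replicate 1 of WT. The medians were -0.16 in slpifq and -0.20 in slpif8a, each against the WT white-light libraries that chose the genes.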

How the data were processed

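Poly(A) RNA was sequenced as stranded single-end libraries. Per the study's methods, reads were processed with CASAVA 1.8.2, mapped with STAR 2.7.9a to tomato genome SL4.0 and counted with HTSeq 0.13.5, and edgeR 3.40.2 was used for normalisation. The deposited count tables hold raw counts per gene. Rows with no gene name, 8.54% to 16.5% of a library in the time-course table and 8.56% to 17.0% in the genotype table, were left out. The deposited CPM tables hold values that the authors scaled by effective library sizes, so column sums differ, and they were treated as normalised signal. They gave the rule and the printed levels, and WT levels differ slightly between both tables.

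Tests used the counts with edgeR 4.0.16 in R 4.3.3: TMM normalisation, a quasi-likelihood fit of all 72 libraries of a table, and Benjamini-Hochberg adjustment over 17469 (time course) or 17460 (genotypes) genes with CPM above 5 in at least 3 libraries. All 118 genes passed this filter. Interactions were taken at an adjusted p under 0.05 with no fold limit. Alternatives were DESeq2 1.42.0, limma 3.58.1 on log2 of CPM plus 1, DESeq2 size factors, no filter, hypocotyl libraries alone, a replicate block and each library left out. Same-numbered replicates deviated together, with every correlation over 0.1, in 4 of 15 group comparisons (WT 24FR and 24WL at 24 h, slpif8a 24FR and 24WL, slpifq and WT in 24FR, slpif8a and WT in 24WL). The code was tested on simulated data. Reads shared by near-identical genes were not examined.

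The members and lists were chosen with earlier results of these data known. Role groups matched words in the study's automatic descriptions, and 39 genes were named by rule: the most abundant, the largest called changes per time, the slpifq differences and the called members of each role group. No sequences or coordinates matched these gene IDs here, so none are given.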

Additional observations from a re-analysis of the deposited data

Results flagged for a closer look

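The 12 results below are tests in which the far-red response of a gene differed between organs or genotypes, and each is a log2 difference of responses at 6 h. Between hypocotyl and epicotyl of WT, the response of the organ specific protein Solyc07g016215 differed by -2.53, that of MLP-like protein 43 (Solyc09g014525) by -1.80 and that of the acid phosphatase 1-like gene Solyc06g062380 by -0.96. The XTH Solyc05g005680 differed by 1.95, the citrate binding protein Solyc11g005480 by 1.49 and the serine protease SBT3 (Solyc01g087850) by 0.84. The citrate binding protein had 89.2, 87.4 and 66.1 CPM in 24FR and 68.4, 51.9 and 50.9 CPM in 24WL of the hypocotyl, which overlap, and 1.76, 1.33 and 1.42 CPM in 24FR and 3.401, 3.05 and 2.53 CPM in 24WL of the epicotyl. SBT3 had 284, 296 and 274 CPM in 24FR and 138, 211 and 194 CPM in 24WL of the hypocotyl, and 11.4, 12.7 and 15.3 CPM in 24FR and 11.9, 16.7 and 16.1 CPM in 24WL of the epicotyl. The difference for Solyc06g062380 was no longer called without replicate 2 of 24WL (-0.87) or replicate 3 of 24FR (-0.85) of the hypocotyl.

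Between mutant and WT hypocotyls, MLP-like protein 43 (Solyc09g014525) differed by 1.37 in slpifq and by 1.27 in slpif8a. In slpifq, protease inhibitor I (Solyc09g084460) differed by 1.38, Solyc02g086300 by 2.03, Solyc12g088300 by 1.39 and the oxygenase Solyc01g006580 by 0.86. In WT hypocotyls 24FR lay below 24WL for all 5 of these genes, and each difference is above 0.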

How the results depend on the processing

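Of 268 refits of the 22 main counts, 234 stayed within 1.5 times the count reported and 34 did not. Of 1299 refits of the 108 values of named genes, 1183 kept direction and call, 116 kept direction and lost the call, and 0 reversed. In WT hypocotyls the members called at 6 h numbered 19 to 24, and at 24 h 27 to 32, with 1 library left out.

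With limma, 11 members were called in epicotyls, 7 in cotyledons, 4 in first leaves, 14 for the hypocotyl against epicotyl response, 0 for slpif8a against WT in 24FR and 1 for slpifq against WT in 24WL. With hypocotyl libraries alone there were 0 for slpif8a against WT in 24FR, 0 for the slpif8a interaction, 2 for the slpifq response and 3 for the slpifq interaction, which was also 3 with no filter. The cause was not tested.

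Leaving out 1 library gave 4 to 7 called members for WT at 3 h (7 without replicate 3 of 24FR), 4 to 10 for the slpif8a response (4 without replicate 3 of slpif8a 24FR), 0 to 2 for slpif8a against WT in 24FR and 0 to 1 for the slpif8a interaction. It gave 0 to 1 for slpifq against WT in 24WL, 2 to 7 for the slpifq interaction and 0 to 1 for slpifq against slpif8a in 24FR. A fold limit of 3 gave 183 members and one of 6 gave 77.

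Deviations of same-numbered replicates had correlations of -0.26 to 0.66 and a median of 0.18, and 28 of 45 pairs correlated best with their own number. A replicate block moved no count by over 1.5 times and ended no call of a named gene: it gave 28 called members at 24 h and 9 for slpifq against WT in 24FR. Depth limits the members near 10 CPM and those near the floor of 3 counts outside the hypocotyl.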
